A study of Drosophila melanogaster with 8 samples.

Results

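The genes examined here are the nuclear genes of the mitochondrial respiratory chain and ATP synthase, measured by RNA-seq in the terminalia (genital and anal structures) of single male pupae of Drosophila melanogaster. They were chosen by name: rows of the deposited gene count table whose FlyBase symbol starts with ND-, Sdh, UQCR-, COX and a digit, ATPsyn or Cyt-c, or is RFeSP, levy or cype. The annotation used holds 95 such symbols, and 94 of them have a row among the 16845 genes of the table. Cyt-c-p, the somatic cytochrome c gene, was not analysed here. The 94 members fall into 67 structural subunits, 26 paralogs (duplicate copies, whose symbol carries an added L, or d for cytochrome c) and 1 assembly factor, Sdhaf3. All pupae were males of the genotype yw;+;+ kept at 25°C, with 4 libraries from 4 pupae at 24 hr after puparium formation (APF) and 4 at 28 hr APF. The labels name no treatment. The labels do not say whether the 2 ages were dissected and prepared together. Age therefore cannot be told apart from any difference in dissection or library handling between them. The authors chose these hours because they come just before the adult genital structures take shape.

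The respiratory chain passes electrons from NADH and succinate to oxygen through complexes I to IV, and complex V, the ATP synthase, uses the resulting proton gradient to make ATP. Complex I takes electrons from NADH, complex II from succinate, complex III hands them to cytochrome c and complex IV to oxygen. All complexes except complex II mix subunits from the nucleus with subunits from mitochondrial DNA. Many of the duplicate copies in flies are known chiefly from the male germline.

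Between 24534188 and 35795240 reads per library were counted on genes. Each library came from a different pupa, and no library repeated another of its time point, since the lowest chi-square per degree of freedom was 7.36. Genes that mark male terminalia were present at both time points, with dsx, the sex determination factor, at 48.9 and 60.3 rpkm (counted reads per exon kilobase, scaled to the library's total count) and cad, a factor of the anal structures, at 96.2 and 113 rpkm. Of 11232 genes that passed the filter on low counts, 3692 had an adjusted p under 0.05 for a difference with age. The 37 genes of mitochondrial DNA (symbols starting mt:) are listed at 0 in all 8 libraries, so nothing can be read here about the mitochondrial subunits. The members together made up 0.917% to 0.977% of a library.

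The structural subunits were among the abundant transcripts of the terminalia, and their levels sorted by complex. Of the 67, 55 ranked in the top 10% of the 16431 genes with a known length, and 33 in the top 5%. The median level of the subunits of complex I lay between 69.2 and 75.2 rpkm over the 8 libraries, and that of complex II between 83.7 and 95.8 rpkm. For complex III it lay between 109 and 114 rpkm, for complex IV between 172 and 184 rpkm and for complex V between 196 and 207 rpkm. The ranges of neighbouring complexes do not overlap, so the order from complex I to complex V held in each library at both time points. Single subunits of different complexes overlap widely, as the plot of levels by complex shows.

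**Figure D1:**
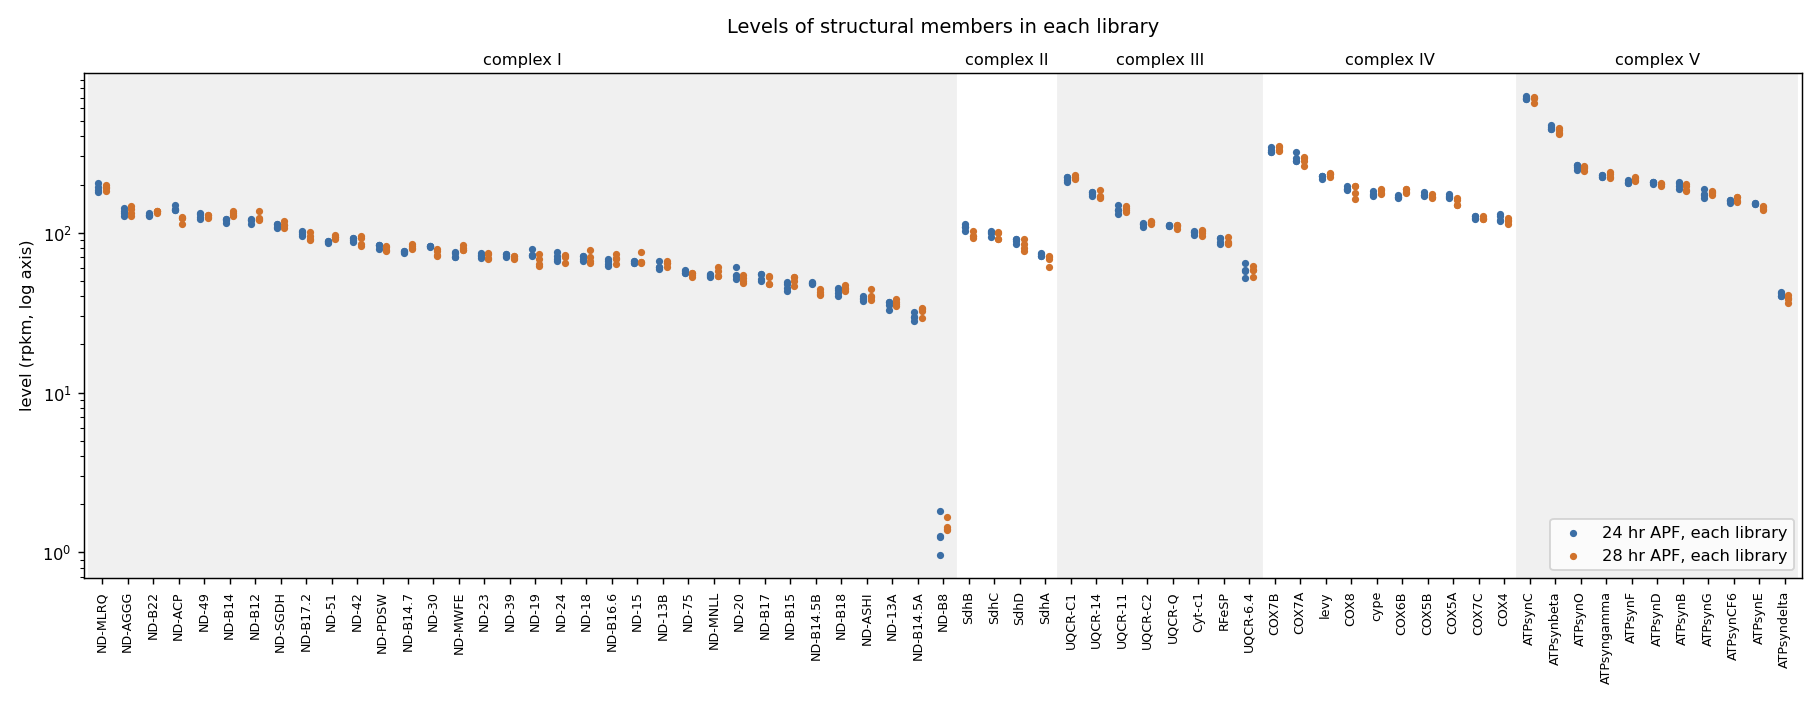
Level of each of the 67 structural members in each of the 8 libraries (rpkm, log axis), grouped by complex and ordered within a complex by mean level; blue points are the 4 libraries at 24 hr APF and orange points the 4 at 28 hr APF. ATPsynC is the highest, with means of 697 and 688 rpkm, and ND-B8 stands alone near 1 rpkm while the next lowest, ND-B14.5A, is at 29.8 and 32.2 rpkm.

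Within the ATP synthase, ATPsynC, which encodes the subunit of the rotating membrane ring, had the highest level of all members. Its levels were 688, 718, 694 and 691 rpkm in the 4 libraries at 24 hr APF and 696, 707, 651 and 698 rpkm at 28 hr APF. The time points overlap, and the log2 fold change was 0.01 (SE 0.04, adjusted p = 0.841). ATPsynbeta, the catalytic subunit, followed with 445, 446, 460.2 and 469.5 rpkm at 24 hr APF and 450.3, 421, 414 and 441 rpkm at 28 hr APF. Its time points also overlap, and its log2 fold change was -0.05 (SE 0.04, adjusted p = 0.404). The level of ATPsynC was 1.47 to 1.61 times that of ATPsynbeta in the libraries at 24 hr APF and 1.55 to 1.68 times at 28 hr APF. The catalytic head also needs the alpha subunit, whose gene blw (not a member by name) stood at 0.942 to 1.04 times ATPsynbeta at 24 hr APF and 0.973 to 1.09 times at 28 hr APF. The lowest subunit was ATPsyndelta, part of the central stalk, at 41.2 ± 1.21 and 38.6 ± 1.81 rpkm (SD, n = 4). ATPsynC exceeded it 17.4-fold, the widest range of the 5 complexes once ND-B8 is set aside. ATPsyndelta shares 35.6% of its exon bases with CG2962, which had 4 to 35 counts per library. Its low rpkm also rests on the 3817 exon bases that its counts were divided by. It had 3963 to 5480 counts per library, more in each library than ATPsynF, with 3096 to 4705 counts on 615 exon bases. How far this length sets its place and the 17.4-fold range was not tested.

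The range was narrower elsewhere. In complex IV (cytochrome c oxidase) COX7B had 319.5 to 344 rpkm at 24 hr APF and 326 to 347 rpkm at 28 hr APF, and COX7A 294 ± 19.7 and 283 ± 15.7 rpkm, while COX4 was lowest at 124 ± 6.02 and 119 ± 3.75 rpkm. levy and cype, the fly genes for subunits 6A and 6C, stood between them with 224 ± 4.14 and 232 ± 6.29 rpkm, and 175 ± 5.76 and 181 ± 6.20 rpkm. In complex III the core protein gene UQCR-C1 had 217 ± 6.87 and 222 ± 5.85 rpkm. RFeSP, which encodes the Rieske iron-sulfur protein, had 89.4 ± 3.65 and 88.3 ± 3.58 rpkm, and the small subunit UQCR-6.4 was lowest at 58.1 ± 5.05 and 58.0 ± 3.85 rpkm. UQCR-6.4 shares 40.5% of its exon bases with POSH on the opposite strand, so its counts may include reads of POSH. POSH had 2090 to 2719 counts per library. UQCR-14, second in that complex at 176 and 172 rpkm, lies wholly within exons of CG32576 on the opposite strand, so its counts may include reads of that gene. The 4 subunits of complex II lay closest together, with SdhB 1.46 times SdhA.

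Complex I holds 34 of the structural members and the one that departs from the rest. Its 2 highest were ND-MLRQ at 190.5 ± 11.1 and 191 ± 7.02 rpkm and ND-AGGG at 135 ± 6.65 and 137 ± 8.02 rpkm. The human counterpart of ND-MLRQ is now placed in complex IV. ND-B8, an accessory subunit, had only 0.958, 1.24, 1.26 and 1.82 rpkm at 24 hr APF and 1.66, 1.45, 1.38 and 1.41 rpkm at 28 hr APF. All 8 values lie in the range of the paralogs, and the time points overlap (log2 fold change 0.18, SE 0.27, adjusted p = 0.658). The remaining 33 structural members of complex I ranged upward from ND-B14.5A, with 29.8 and 32.2 rpkm. ND-B8 shares 15.4% of its exon bases with Gs1l, which had 448 to 692 counts per library. Why it is low was not tested. The 7 core subunits, which carry the electron path, and the 27 accessory subunits had almost the same median level, 72.2 and 72.3 rpkm at 24 hr APF and 71.5 and 70.0 rpkm at 28 hr APF. That division was made after the values were seen. The 9 complex I genes on the X chromosome had a median of 55.3 and 54.9 rpkm with no mean above 70.8 rpkm, and the 24 on other chromosomes, ND-B8 left out, 82.5 and 80.9 rpkm. This too was noticed after the values were seen and was not tested.

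Between 24 and 28 hr APF the structural subunits changed little. Of the 80 members that passed the filter, 10 were called (12.5%), 7 higher and 3 lower at 28 hr APF. Over all tested genes 32.9% were called, 15.6% higher and 17.3% lower. Every structural member was tested, and 8 of 67 were called (11.9%), 5 higher and 3 lower. Counts of calls depend on depth, and the members are abundant. Among the 3175 tested genes with a mean of at least 30 rpkm, 42.8% were called, against 8 of the 66 structural members above that level (12.1%). The median log2 fold change of the 67 structural members was 0.02, beside 0.004 for all tested genes, and their median absolute log2 fold change was 0.06, beside 0.17. In whole tissue, fewer cells of a type and less RNA per cell cannot be told apart.

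The structural changes that were called were all small. Leaving out ND-B8, the log2 fold changes of the structural members ran from -0.19 to 0.17. For 62 of those 66 the 95% interval of the fold change lay within 1.2-fold in both directions (93.9%). The share over all tested genes was 32.5%, and among tested genes of at least 30 rpkm it was 57.4%. When the change was tested against a minimum of 1.2-fold, 2 members remained called, both paralogs, and no structural member, while 12.0% of all tested genes were called. At an unadjusted p under 0.05, no structural member passed the edgeR test against 1.2-fold (0 of 67), and 15 passed the test against no change. Among the 3175 tested genes of at least 30 rpkm, 423 and 1707 passed these 2 tests. DESeq2 called 10 of the 67 against no change, beside 34.3% of all tested genes. The libraries of a time point also lay close together in the structural members. The median coefficient of variation between pupae was 3.37% and 3.46% at the 2 time points for the 66 structural members, and 4.07% and 4.62% for tested genes of at least 30 rpkm.

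**Figure D2:**
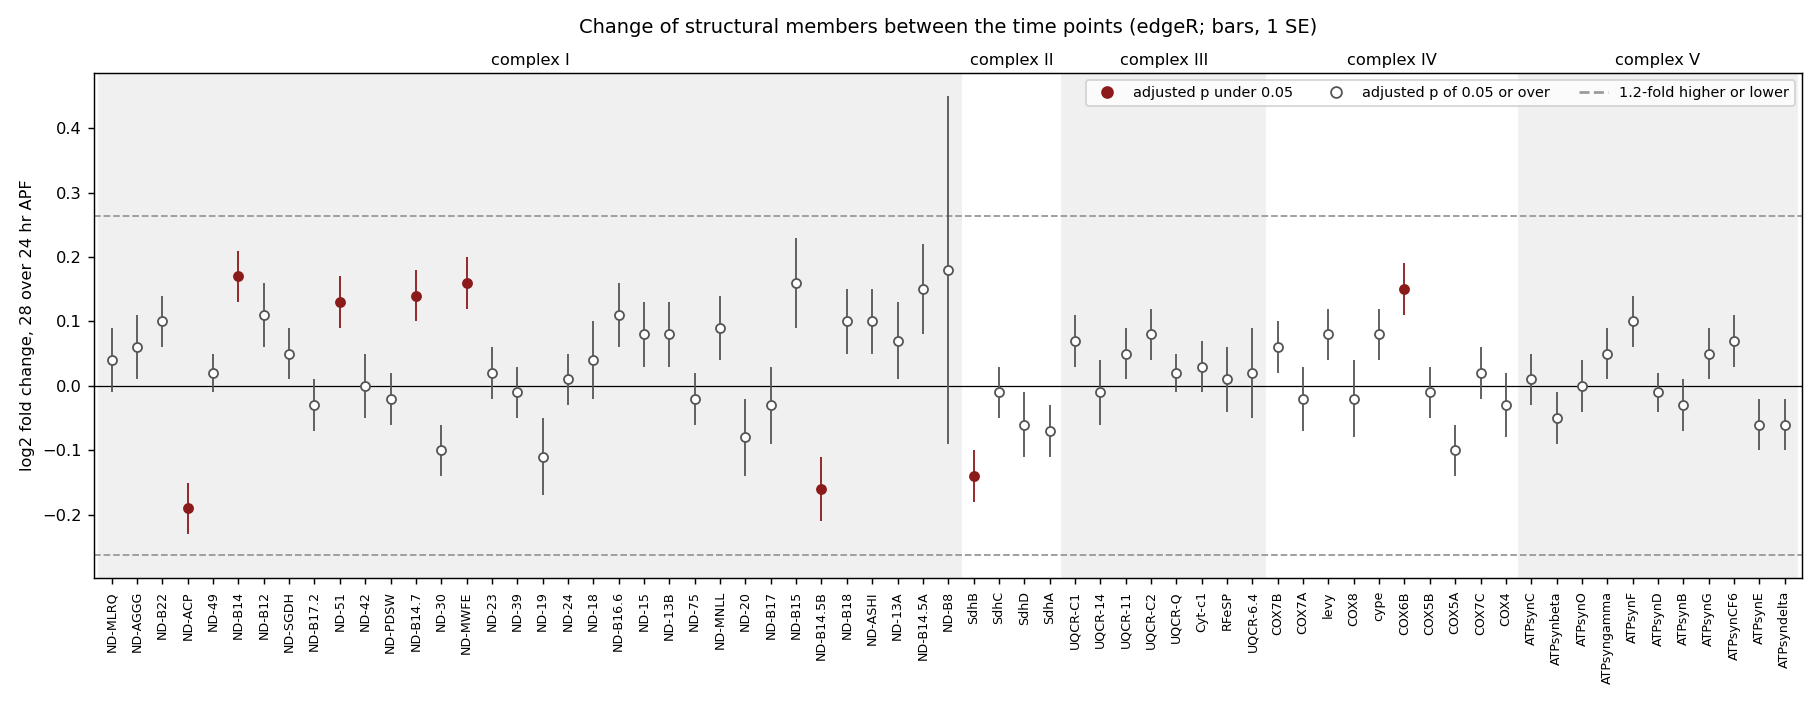
Log2 fold change of each of the 67 structural members, 28 over 24 hr APF, from edgeR, with bars of 1 SE; filled red points passed an adjusted p of 0.05 and dashed lines mark 1.2-fold. All points lie inside the dashed lines, and 6 of the 8 red points are in complex I, which holds 34 of the 67 members. ND-B8 has the wide bar of a gene with few counts.

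Complex I, with 34 of the 67 structural members, held 6 of the 8 structural calls, and they went both ways. Its share called was 17.6%, under the 32.9% of all tested genes. ND-ACP, the mitochondrial acyl carrier protein, which also serves fatty acid synthesis, fell the most. It had 141, 139, 149.5 and 138 rpkm at 24 hr APF and 123, 125, 114 and 124 rpkm at 28 hr APF. No 28 hr library reached the lowest 24 hr library, and the log2 fold change was -0.19 (SE 0.04, adjusted p = 0.00293). ND-B14, the subunit known from other species to hold an acyl carrier protein in complex I, rose instead. It had 121, 115, 121 and 120.1 rpkm at 24 hr APF and 133, 127, 129 and 137 rpkm at 28 hr APF. The time points do not overlap, and the log2 fold change was 0.17 (SE 0.04, adjusted p = 0.00694). ND-B14 shares 12.9% of its exon bases with CG12942, whose own log2 fold change was -0.10 (adjusted p = 0.24).

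Of the other complex I genes, 3 rose and 1 fell. ND-MWFE, a small membrane subunit, had 70.7, 70.1, 75.3 and 74.8 rpkm at 24 hr APF and 79.8, 77.4, 77.8 and 83.6 rpkm at 28 hr APF. All 28 hr libraries were above all 24 hr libraries, with a log2 fold change of 0.16 (SE 0.04, adjusted p = 0.0136). It shares 35.0% of its exon bases with TppII and Nrk, and neither was called (log2 fold changes of -0.01 and 0.35, adjusted p = 0.844 and 0.163). ND-B14.7, another membrane subunit, went from 75.9 ± 1.26 to 82.0 ± 2.59 rpkm (log2 fold change 0.14, SE 0.04, adjusted p = 0.0299). ND-51, the core subunit that binds NADH, went from 87.8 ± 1.53 to 93.8 ± 2.10 rpkm (log2 fold change 0.13, SE 0.04, adjusted p = 0.0264). ND-B14.5B, of the membrane arm, went from 48.4 ± 0.748 to 42.4 ± 1.66 rpkm (log2 fold change -0.16, SE 0.05, adjusted p = 0.0295). In all 3 of these genes the libraries of the time points did not overlap. The other 28 structural members of complex I did not pass the test, ND-49, ND-20, ND-75 and ND-30 of the core among them.

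Outside complex I, SdhB fell and COX6B rose. SdhB, the iron-sulfur subunit of complex II, had 103, 114, 109 and 108 rpkm at 24 hr APF and 102, 94.7, 93.1 and 95.7 rpkm at 28 hr APF. The time points came within 1 rpkm of each other at 103 and 102 rpkm without overlapping, and the log2 fold change was -0.14 (SE 0.04, adjusted p = 0.025). The other complex II genes had log2 fold changes of -0.07 for SdhA, the flavoprotein, and -0.01 and -0.06 for SdhC and SdhD, the membrane anchors, with adjusted p = 0.223, 0.882 and 0.379. SdhB shares 10.6% of its exon bases with CG15237, whose log2 fold change was -0.11 (adjusted p = 0.133). COX6B, a subunit on the intermembrane side of complex IV, had 168, 172, 165 and 168 rpkm at 24 hr APF and 179, 187, 177 and 189 rpkm at 28 hr APF. All 28 hr libraries were above all 24 hr libraries, with a log2 fold change of 0.15 (SE 0.04, adjusted p = 0.0103). It shares 9.4% of its exon bases with CG18809, which rose too (log2 fold change 0.21, adjusted p = 0.0169). None of the 8 subunits of complex III and none of the 11 of complex V passed the edgeR test. At an unadjusted p under 0.05 the counts were 0 and 1, and DESeq2 called 0 and 1. Their 95% intervals all lay within 1.2-fold, as did those of the 10 subunits of complex IV and the 4 of complex II.

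The calls on 4 of these genes rest on the full set of libraries. ND-51, ND-B14.7, ND-B14.5B and SdhB each stayed called in 3 of the 8 fits without 1 library, with adjusted p of up to 0.0832. ND-51 and ND-B14.7 lost the call without replicates 1, 2 or 3 at 24 hr APF or replicates 3 or 4 at 28 hr APF. ND-B14.5B lost it without replicates 1, 3 or 4 at 24 hr APF or replicates 1 or 2 at 28 hr APF, and SdhB without replicates 2 or 4 at 24 hr APF or replicates 2, 3 or 4 at 28 hr APF. The other 6 called members kept the call in all 8 fits. ND-51 and ND-B14.7 also lost it when counts were scaled by library totals alone and with no filter on low counts.

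The paralogs were of another order of abundance. Of 26, 17 were under 1 rpkm at both time points, and 12 passed the filter. A passing paralog needed enough reads in at least 1 time point, so the 12 do not stand for all 26. ATPsynepsilonL was highest by the mean of all 8 libraries, with 5.01 to 7.32 rpkm at 24 hr APF and 3.32 to 5.74 rpkm at 28 hr APF, against a mean over all libraries of 236 rpkm for its partner sun, the epsilon subunit. COX7CL, the highest at 28 hr APF, had 4.67 ± 0.267 and 5.34 ± 0.473 rpkm and its partner COX7C 125 ± 3.30 and 124 ± 2.80 rpkm. For these 2 the partner was 46.0 and 24.8 times higher, and UQCR-6.4 was 56.1 times higher than UQCR-6.4L at 24 hr APF and 16.5 times at 28 hr APF. In the complex I pairs the partner was 31.0 times (ND-20 over ND-20L), 66.8 times (ND-49 over ND-49L) and 68.1 times (ND-51 over ND-51L1) higher. Of the 12 tested paralogs, 2 were called, both higher at 28 hr APF.

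UQCR-6.4L, the copy of a small complex III subunit, had the largest log2 fold change of the 80 tested members. It had 13, 12, 10 and 19 counts at 24 hr APF and 51, 42, 31 and 65 counts at 28 hr APF. No 24 hr library came near the lowest 28 hr library, and the log2 fold change was 1.77 (SE 0.27, adjusted p = 0.000645). The gene lies on chromosome arm 3L inside an intron of Mipp1, a phosphatase gene. Mipp1 itself had 225 to 429 counts per library at 24 hr APF and 1103 to 1664 at 28 hr APF, with a log2 fold change of 2.05 (SE 0.22, adjusted p = 6.57e-05). Reads of unspliced host RNA would be counted on a nested gene, and their part in the rise was not tested. The partner UQCR-6.4 had a log2 fold change of 0.02 (SE 0.07, adjusted p = 0.837). POSH, with which the partner shares 40.5% of its exon bases, had -0.07 (adjusted p = 0.433).

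SdhBL, the copy of the complex II iron-sulfur subunit, rose while SdhB fell. It had 6, 5, 5 and 10 counts at 24 hr APF and 14, 17, 23 and 17 counts at 28 hr APF. The time points do not overlap, and the log2 fold change was 1.44 (SE 0.33, adjusted p = 0.00714). Scaled by library size, no 24 hr library reached the filter's count minimum. SdhBL was thus tested only through the 28 hr libraries, where it is high, and such a filter favours a rise. Its level of 0.297 ± 0.0721 rpkm at 28 hr APF remained far under the 96.3 rpkm of SdhB. SdhBL is X-linked, shares no exon bases with another gene and lies in no intron.

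The remaining 10 tested paralogs were not called. COX6AL2 had 2212 counts over all libraries, the most of any paralog, but 67.0% of its exon bases are shared with Ir75d and Prp6. Its counts and those of Ir75d were nearly the same in each library (for example 287 and 287 in replicate 1, and 338 and 338 in replicate 4, at 24 hr APF). COX5BL lies wholly within exons of Trmt6. ND-49L, ND-51L1, UQCR-11L and COX6AL lie in introns of Fur1, Smurf, Acsl and Cyp4aa1, hosts with 198 to 6893 counts per library. Of the 9 paralogs that reached 1 rpkm at either time point, 6 lie in an intron of another gene or share over 10% of their exon bases with one, and their own reads cannot be told apart here. ND-20L and ATPsynepsilonL have no such neighbour, with log2 fold changes of -0.23 (SE 0.21, adjusted p = 0.452) and -0.34 (SE 0.21, adjusted p = 0.24).

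At the lowest end, 5 paralogs had 0 counts in every 24 hr library and a few counts in some or all 28 hr libraries. The share of all genes with this pattern was not taken, so the 5 are a description only. ND-24L had 5, 1, 4 and 1 counts in the 28 hr libraries and SdhCL 4, 1, 10 and 0. UQCR-14L had 1, 5, 2 and 1 counts there, COX6CL 2, 0, 6 and 0, and ATPsynGL 3, 0, 2 and 0. These 5 had 0 of the 119791633 reads counted at 24 hr APF, which allows up to 3 counts each by counting error alone. None passed the filter, and the time points overlap for the 3 that had 0 counts in some 28 hr library. The highest 28 hr library was replicate 3 for SdhCL and COX6CL, replicate 1 for ND-24L and ATPsynGL, and replicate 2 for UQCR-14L.

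COX7AL2, a copy of COX7A, was also under the filter and had time points that do not overlap. It had 0, 2, 4 and 1 counts at 24 hr APF and 12, 10, 5 and 18 counts at 28 hr APF. Replicate 4 was its highest library, and the mean level was 0.0673 and 0.380 rpkm. With no filter on low counts, 2 of the 14 paralogs outside the main test were called, both higher at 28 hr APF. Over all 15794 genes of that fit, 23.3% were called. The 2 paralogs are thus no more than the share over all genes. The 2 paralogs were COX7AL2 (log2 fold change 2.52, SE 0.75, adjusted p = 0.0283) and ND-24L, with adjusted p = 0.0417. COX7AL2 passed the filter in 5 of the 8 fits without 1 library and was called in all 5 (adjusted p = 0.00975 to 0.0464). With at most 4 counts per 24 hr library, it passed there only through 28 hr libraries, where it is high. Those calls therefore add no support of their own. COX7AL2 lies in no intron and shares no exon bases with another gene. It was singled out after its values were seen.

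**Figure D3:**
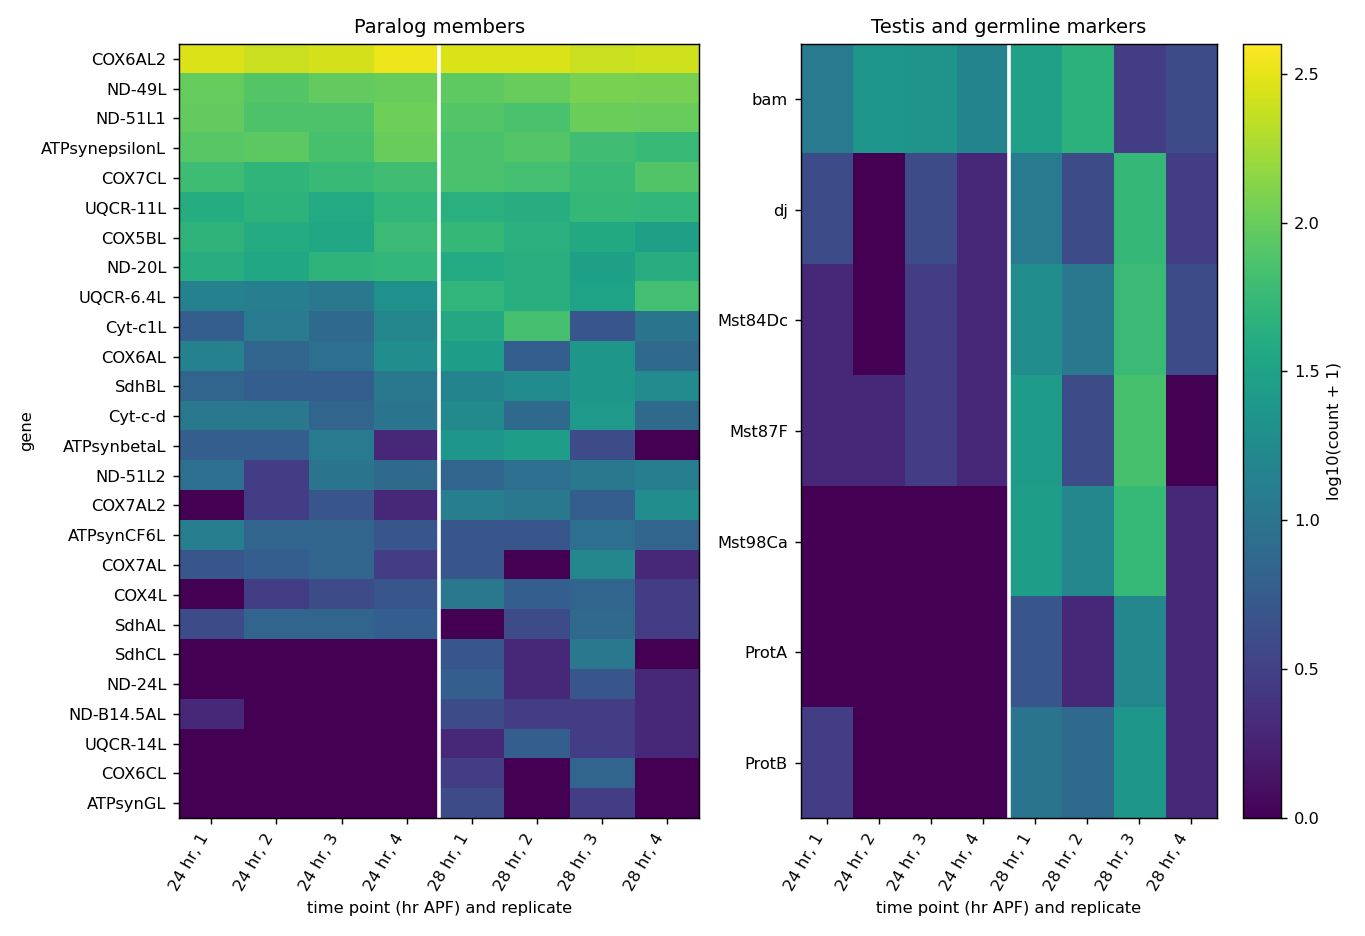
Counts of the 26 paralogs (left) and of 7 markers of testis and germline (right) in each library, as log10(count + 1), with the 24 hr libraries to the left of the white line. The 7 were chosen after their values were seen, from 16 markers with a row. The spermatid markers drawn are dark in the 24 hr libraries and brightest in replicate 3 at 28 hr APF, as are SdhCL and COX6CL, while bam, Cyt-c1L and ATPsynbetaL are brightest in replicates 1 and 2.

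Some genes of late male germ cells were also low at 24 hr APF and higher in some 28 hr libraries. Mst98Ca, a spermatid gene, had 0 counts in every 24 hr library and 27, 15, 54 and 1 counts at 28 hr APF. The protamine genes ProtA and ProtB, which pack sperm DNA, had at most 2 counts per 24 hr library and 4, 1, 15 and 1, and 9, 7, 23 and 1 counts at 28 hr APF. Replicate 3 was highest and replicate 4 near 0 in each, and the same holds for dj, Mst84Dc and Mst87F. Cyt-c-d, the cytochrome c copy that acts in spermatid maturation, had 10, 10, 6 and 9 counts at 24 hr APF and 16, 7, 24 and 7 at 28 hr APF, and was not tested. COX7AL had 2 to 6 counts at 24 hr APF and 4, 0, 15 and 1 at 28 hr APF. A different pair of libraries was high for Cyt-c1L, with 5, 11, 7 and 15 counts at 24 hr APF and 36, 67, 4 and 9 at 28 hr APF (log2 fold change 1.61, SE 0.76, adjusted p = 0.135). ATPsynbetaL had 1 to 11 counts at 24 hr APF and 22, 28, 3 and 0 at 28 hr APF, and bam, a gene of early germ cells, had 11 to 22 and then 30, 46, 2 and 3. Replicates 1 and 2 at 28 hr APF were thus the highest libraries for all 3 of these genes. Of the 16 testis and germline markers with a row, 6 were tested and 2 called, both lower at 28 hr APF. These 2 were mia (log2 fold change -0.67, adjusted p = 0.000345) and twe (-0.50, adjusted p = 0.00229). Unlike the spermatid genes above, fzo of the same list had 66, 53, 54 and 72 counts at 24 hr APF and 33, 47, 91 and 91 at 28 hr APF. The summed level of the 16 markers was 109 to 143 CPM (counts scaled to the library total) at 24 hr APF and 99.1 to 115 at 28 hr APF. Of the list's counts 70.4% to 77.4% came from bol, while aly, a regulator of spermatocyte genes, had 0 counts in each 28 hr library. SdhBL also had its highest count, 23, in replicate 3, but had 17 counts in replicate 4, where those 6 spermatid genes had at most 3. It stayed called without replicate 3. COX7AL2 and UQCR-6.4L had their lowest 28 hr count in replicate 3 and their highest in replicate 4. The part of germ cells in the paralog counts was not tested.

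Other genes of energy metabolism and of the mitochondrion are set beside the members from lists of well-known genes. Of the 71 mitochondrial ribosomal protein genes tested, 13 fell and 0 rose by edgeR, with a median log2 fold change of -0.10. That share, 18.3%, is near the 17.3% of all tested genes called lower. The lowest log2 fold change was that of mRpS35 at -0.33 (adjusted p = 0.00576). Of 12 genes for the expression and upkeep of mitochondrial DNA, 5 fell and 0 rose, among them mtDNA-helicase at -0.57 (adjusted p = 0.00128), the single-strand binding protein mtSSB at -0.49 (adjusted p = 0.000837) and TFAM, which packs mitochondrial DNA, at -0.26 (adjusted p = 0.000418). Of 10 tested genes for protein import, 4 fell and 0 rose. The shares called were 41.7% for mitochondrial DNA and 40% for import, beside 32.9% of all tested genes. In the lists for the ribosome, mitochondrial DNA and import, DESeq2 likewise called 0 higher. At an unadjusted p under 0.05, 1, 0 and 1 of their genes were higher. Of 12 glycolysis genes, 7 fell and 2 rose (75% called). Pfk, the committed step, was at -0.50 (adjusted p = 0.000583) and Gapdh2 at -0.40 (adjusted p = 9.1e-05). Ldh, which makes lactate, was at 0.95 (adjusted p = 0.00013). The 4 further nuclear subunits with other names (blw, sun, ox and Neb-cGP) gave 0 calls by edgeR and by DESeq2, 1 at an unadjusted p under 0.05, and a median of 0.01. Whether these lists differ from the structural members was not tested.

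**Figure D4:**
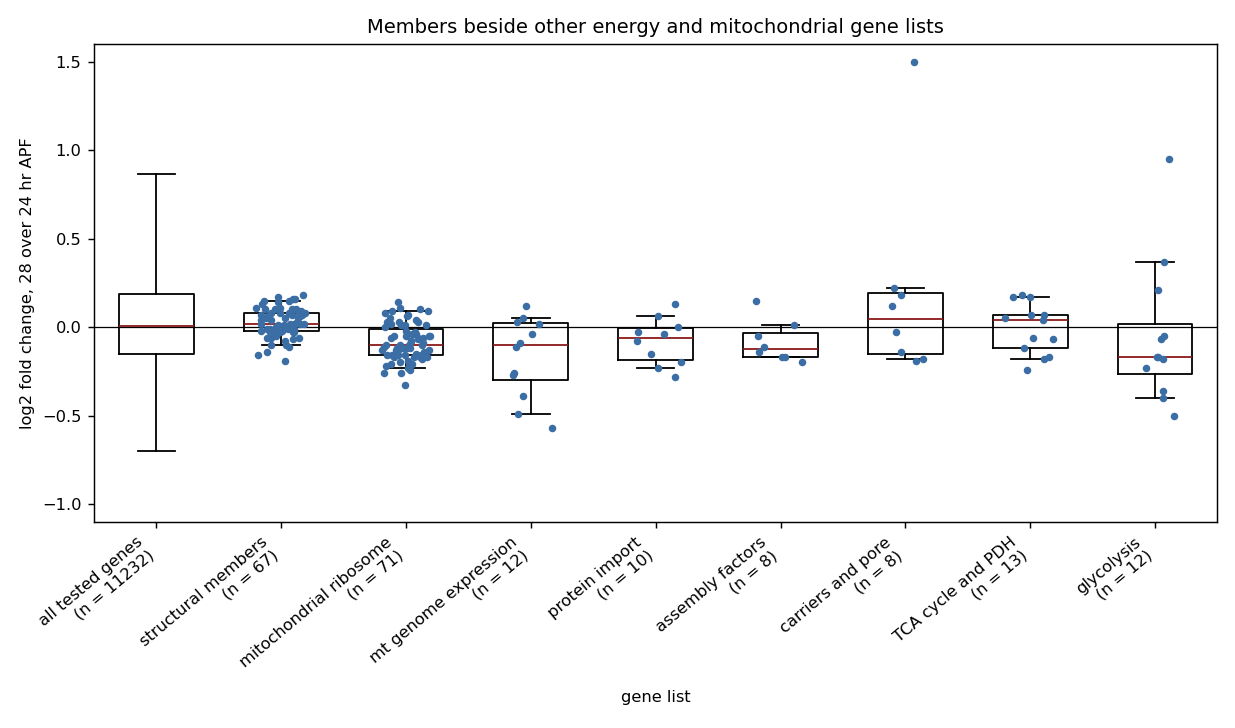
Log2 fold changes, 28 over 24 hr APF, for all tested genes, the 67 structural members and 7 other lists; boxes show the quartiles with the median in red, whiskers the 5th to 95th percentiles, and points single genes, which are not drawn for all tested genes. The structural members lie between -0.19 and 0.18, while the lists for the mitochondrial ribosome, mitochondrial genome expression and glycolysis have medians of -0.10, -0.10 and -0.17.

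Markers of other cell types that the dissected tissue can hold were followed in the same fit. Of 11 muscle genes, 6 rose and 3 fell, with Mlc2, a myosin light chain, at 20.4 and 42.3 rpkm (log2 fold change 1.08, adjusted p = 5.65e-06) and Act57B, a muscle actin, at 315 and 236 rpkm (log2 fold change -0.38, adjusted p = 0.00858). The summed level of the muscle list was 894 to 1172 CPM at 24 hr APF and 957 to 1078 CPM at 28 hr APF. Of 6 tested neuron genes, 4 rose, and the summed level of that list was 63.0 to 74.8 CPM at 24 hr APF and 75.8 to 93.1 CPM at 28 hr APF. The fat body list was highest in replicate 3 at 24 hr APF, at 165 CPM. Lsp2, a larval storage protein gene, had 35.6 rpkm there and 7.90, 2.20 and 3.91 rpkm in replicates 1, 2 and 4. Of 6 tested fat body genes, 1 was called, Lsp1gamma, which was lower at 28 hr APF (log2 fold change -1.72, adjusted p = 0.000137). Over all tested genes 32.9% were called. The median structural member was at 103, 107, 109 and 108 rpkm in replicates 1 to 4 at 24 hr APF. The part of these cells in the members' levels was not tested.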

How the data were processed

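Poly-A RNA from single male pupal terminalia was sequenced in 4 libraries each at 24 and 28 hr APF. The authors aligned reads to the dm3 assembly with TopHat2 2.0.13, counted them in unioned exons of FlyBase genes with bedtools, and deposited raw counts, not normalized, for 16845 genes. Strand use and the handling of reads on overlapping genes are not given in the sources used here, so a read on 2 genes may count on both. Symbols, exon lengths, overlaps and chromosome arms came from Ensembl's BDGP6 annotation, another build, matched by FlyBase identifier (16431 matched, 414 not); no coordinates were converted.

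Levels are counts divided by exon kilobases and scaled to the library's total count (rpkm), averaged over 4 libraries. Time points were compared on all genes with edgeR 4.0.16 in R 4.3.3 (filterByExpr with a count minimum of 10, TMM factors of 0.964 to 1.028, quasi-likelihood test, two-sided, Benjamini-Hochberg adjustment over all tested genes, threshold 0.05). The SE is the log2 fold change over the square root of F, and 95% intervals use the fit's degrees of freedom. Libraries are single pupae. The fit was tested on simulated counts. Intervals and limits of 0 counts cover counting error only where stated. Alternatives were other scalings, DESeq2 1.42.0, other filters, a replicate block, a minimum fold change of 1.2 and leaving out each library. Python 3.11.15, pandas 2.3.3 and scipy 1.17.1 were used for tables.

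The members and lists were chosen with earlier results of these data known. Genes named are the 2 most and the least abundant structural subunits of complexes I, III, IV and V, called members (up to 6 each way), tested paralogs with partners, the complex II subunits, RFeSP, levy, cype and Cyt-c-d, and the most abundant genes of lists; untested paralogs, neighbouring genes, markers and list genes named for their change were chosen after their values were seen.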

Additional observations from a re-analysis of the deposited data

Results flagged for a closer look

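In each time point the lowest or highest of the 4 libraries was compared with the gap to its neighbour for the named members and for the median of each complex. Of 100 such groups of 4, 7 held a library set apart by Dixon's test at its 95% critical value, and chance alone gives about 1 in 20. In replicate 3 at 28 hr APF, ND-ACP had 114 rpkm while the others had 123 to 125, COX7CL had 4.63 rpkm against 5.51 to 5.66, and the median of complex III was 109 rpkm against 114 in the others. In replicate 3 at 24 hr APF, ND-51L1 had 1.23 rpkm against 1.37 to 1.39 and the median of complex III was 109.7 rpkm against 112. ND-B14 had 115 rpkm in replicate 2 at 24 hr APF against 120.1 to 121, and the median of complex II was 89.3 rpkm in replicate 1 at 24 hr APF against 94.9 to 95.8. Without replicate 3 at 28 hr APF, ND-ACP remained called, as it did in each of the 8 fits without 1 library (log2 fold change -0.21 to -0.18).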

How the results depend on the processing

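The 10 called members, 7 higher and 3 lower, were recounted under each alternative. DESeq2 size factors and upper-quartile normalization each gave 11, DESeq2 gave 12, and a mean of at least 1 CPM gave 10. In these fits 32.5% to 35.3% of all tested genes were called. No filter also gave 10, but with COX7AL2 and ND-24L in place of ND-51 and ND-B14.7. Leaving out the mt: genes changes nothing, since all are at 0. Library totals alone gave 10, now 5 higher and 5 lower. Against a fold change of 1.2 the counts were 2 called, 2 higher and 0 lower. The replicate numbers did not pair the libraries (correlations of deviations of -0.216 to 0.159), and with a replicate block 6 members were called, 5 higher and 1 lower; ND-51, ND-B14.7, ND-B14.5B and SdhB were lost (adjusted p = 0.0576 to 0.0679). Without 1 library, 8 to 10 were called, 5 to 8 higher and 1 to 4 lower, with 1 lower without replicate 4 at 24 hr APF or replicate 2 at 28 hr APF. Over all tested genes, no filter gave 23.3% called, library totals alone 33.8% and the replicate block 28.3%. The fits without 1 library gave 27.3% to 30.4% of all tested genes. Without members sharing over 10% of exon bases, the median structural level was 116 and 118 rpkm instead of 108 and 100.5 at 24 and 28 hr APF. The median log2 fold change of tested members was 0.023, and -0.008 to 0.051 under the alternatives. No scaling moved the median of all tested genes by over 0.1, and no named gene reversed a call. The 14 untested paralogs had at most 28 counts in a library, so only large changes in them can be seen at this depth.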

Other observations

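Several genes that feed or drain the respiratory chain were called between the time points. Over all tested genes 32.9% were called, and 42.8% of those of at least 30 rpkm. Among 13 genes of the TCA cycle and pyruvate dehydrogenase, 3 rose and 3 fell (46.2% called), a share near that of genes of at least 30 rpkm. Idh3g and Pdha rose (log2 fold changes 0.17 and 0.18, adjusted p = 0.0107 and 0.00397), while Idh3a, another subunit of the same dehydrogenase as Idh3g, fell (-0.18, adjusted p = 0.0136), as did Ogdh (-0.24, adjusted p = 0.00241). Of 8 genes for mitochondrial carriers and the outer membrane pore, 4 rose and 1 fell (62.5% called). Mpcp1, a phosphate carrier gene with 5 to 24 counts per library at 24 hr APF and 30 to 37 at 28 hr APF, had the largest log2 fold change of the list, with mean levels of 0.273 and 0.747 rpkm (adjusted p = 0.0236). The abundant phosphate carrier Mpcp2 rose from 78.5 ± 4.12 to 86.9 ± 1.27 rpkm (log2 fold change 0.18, adjusted p = 0.00732), and sesB, the ADP/ATP carrier, fell from 166 ± 3.18 to 148 ± 5.14 rpkm (-0.14, adjusted p = 0.00688). Among 8 assembly factors of the chain with other names, 3 fell and 1 rose (50% called). Scox, which brings copper to complex IV, was at -0.17 (adjusted p = 0.024). These genes were picked for their change after their values were seen.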
